A study of Mus musculus with 446 samples.

Results

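The genes described here break down the branched-chain amino acids leucine, isoleucine and valine in mitochondria. They are 10 genes chosen by symbol: Bcat2, Bckdha, Bckdhb, Dbt, Bckdk, Ppm1k, Ivd, Acadsb, Mccc1 and Hibch. The choice was made with earlier results of these data known, so shares over all genes stand beside theirs as a description only. All 10 were found once each among the 47643 genes of the liver and muscle tables, and Dbt was the only one found among the 2728 genes of the adipose table. The study sequenced RNA of liver, muscle and abdominal adipose tissue from male Diversity Outbred mice, an outbred population in which each animal is genetically distinct, and 446 libraries were deposited. Mice came at 6 weeks of age and all were first fed the control diet D12450J with 10% of energy as fat. Control mice (n = 74) stayed on it, and high-fat mice (n = 75) were moved at random to the diet D12492 with 60% of energy as fat for 14 weeks. Each library is 1 tissue of 1 mouse, so the replicates are separate animals, and muscle is not named more closely in the labels. Animals were fasted at times for glucose tests, and whether they were fasted at necropsy is not stated.

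The pathway begins with a reversible transamination by Bcat2, the mitochondrial branched-chain aminotransferase, which is known to be active in muscle and low in liver. The branched-chain keto acid dehydrogenase complex then commits the carbon skeletons to oxidation. Bckdha and Bckdhb encode the alpha and beta subunits of its decarboxylase, and Dbt its transacylase core. Bckdk encodes the kinase that switches the complex off by phosphorylation, and Ppm1k the phosphatase that switches it on. After the complex the routes part: Ivd (isovaleryl-CoA dehydrogenase) and Mccc1 (a subunit of methylcrotonoyl-CoA carboxylase) act on leucine, Acadsb (short/branched-chain acyl-CoA dehydrogenase) mainly on isoleucine, and Hibch (3-hydroxyisobutyryl-CoA hydrolase) on valine. Raised branched-chain amino acids in blood are a known companion of obesity and insulin resistance.

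The deposited values are TPM, a transcript's share of its library per unit of transcript length. Each library was divided by a scale factor estimated from its nuclear protein-coding genes, and the result is called scaled TPM. The factor was under 1/3 of its tissue's median in 18 adipose, 26 liver and 11 muscle libraries, among the last 2 control and 9 high-fat. Its lowest value was 0.010 in liver, 0.046 in muscle and 0.039 in adipose tissue, each in a high-fat library. Such genes made up as little as 0.41% of a high-fat liver library, against a median of 60.6%. Libraries with a low factor stayed in the main fits, ranges and SDs. The liver and muscle libraries of mouse 80 were left out of all comparisons, because their marker genes went against their labels: the library labelled liver held 222 scaled TPM summed over 8 hepatocyte genes and 91926 over 8 muscle fibre genes. Every group otherwise expressed the genes that define its tissue, with median sums of 45559 (control) and 41417 (high-fat) over the hepatocyte genes in liver and 127120 and 113540 over the muscle fibre genes in muscle. Some libraries also held transcripts of the other tissue: 9 muscle libraries (4 control, 5 high-fat) had over 1% of liver's hepatocyte sum and 3 liver libraries over 1% of muscle's fibre sum. TPM keep no depth, so the number of reads behind a value is unknown.

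Promoter sequences are shown for 4 of the genes, all of which hold the motif marked below. Ivd, Mccc1 and Bckdhb were lower in muscle on the high-fat diet, as described further on, and Bckdk did not pass that test. RefSeq's table (GRCm38.p6) held a start site for 9 of the 10, all but Dbt. The window is the 250 bases before the first listed start. The capitals mark the letters CCAAT on either strand (ATTGG where the match is on the other strand), the core of the CCAAT box bound by the factor NF-Y in many housekeeping promoters. Ivd is at chr2:118861744-118861993 (plus strand), Mccc1 at chr3:36000679-36000928 (minus), Bckdhb at chr9:83924887-83925136 (plus) and Bckdk at chr7:127903823-127904072 (plus).
Ivd: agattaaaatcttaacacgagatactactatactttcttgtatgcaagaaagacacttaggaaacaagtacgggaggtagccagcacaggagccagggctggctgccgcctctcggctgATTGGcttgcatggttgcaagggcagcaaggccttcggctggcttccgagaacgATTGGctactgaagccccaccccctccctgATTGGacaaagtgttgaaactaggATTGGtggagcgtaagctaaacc
Mccc1: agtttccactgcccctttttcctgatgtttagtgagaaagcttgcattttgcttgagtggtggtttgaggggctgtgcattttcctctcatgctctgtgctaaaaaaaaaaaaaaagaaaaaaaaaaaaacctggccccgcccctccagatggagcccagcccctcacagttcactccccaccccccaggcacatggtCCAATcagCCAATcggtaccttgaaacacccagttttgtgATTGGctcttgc
Bckdhb: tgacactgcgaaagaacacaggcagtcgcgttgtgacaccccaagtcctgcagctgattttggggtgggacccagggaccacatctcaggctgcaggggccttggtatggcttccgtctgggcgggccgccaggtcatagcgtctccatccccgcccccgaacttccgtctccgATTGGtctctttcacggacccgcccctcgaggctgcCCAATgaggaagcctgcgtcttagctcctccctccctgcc
Bckdk: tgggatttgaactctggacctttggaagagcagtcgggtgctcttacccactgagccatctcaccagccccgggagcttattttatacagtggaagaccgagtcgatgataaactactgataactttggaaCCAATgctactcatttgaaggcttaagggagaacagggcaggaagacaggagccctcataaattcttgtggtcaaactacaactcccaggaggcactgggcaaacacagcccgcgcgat
The Ivd window held 4 matches, that of Mccc1 3, and those of Bckdhb and Ppm1k 2 each, while Bckdk held 1. None was found in the windows of Acadsb, Bcat2, Bckdha and Hibch, or in that of a later listed Bckdhb start. These letters occur in 33.8% of the 32536 RefSeq windows of the same length. Of the 6 genes lower in muscle on the high-fat diet that had a window, 4 held a match, as did 1 of the 3 others. The GC box GGGCGG was found in the windows of Acadsb (3), Bckdhb (3), Hibch (5), Ppm1k (2) and Mccc1 (1), against 32.97% of all windows. The E-box CACGTG (6.04% of all windows) and the nuclear receptor element AAGGTCA (4.09%) were found in none of the first windows. Both strands were searched, and matches of different motifs may overlap. The motifs were picked after the sequences had been read, so these counts cannot test a link with the diet. A match is a description of letters and no evidence of binding.

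On the control diet, liver and muscle carried different shares of the pathway. To compare tissues, the libraries of both were scaled together and the 74 control mice of each were tested with limma, a linear model fitted over all 13193 genes. Such a difference is common between these tissues: 89.8% of the genes tested passed an adjusted p of 0.05. Of those passing, 6301 were higher in muscle and 5547 lower. All 10 genes here passed, Bckdk and Bcat2 as higher in muscle and the other 8 as lower.

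**Figure D1:**
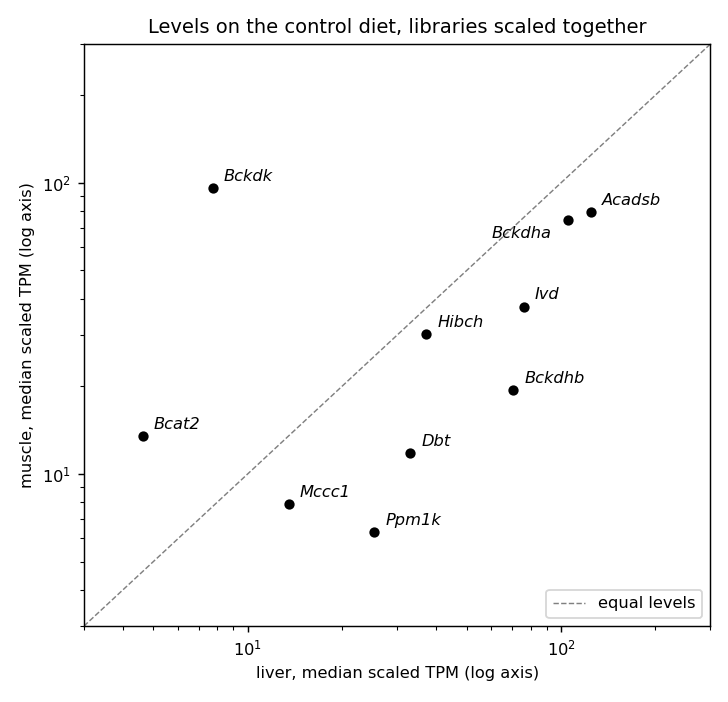
Median scaled TPM of each of the 10 genes in muscle (y axis, log) against liver (x axis, log) over 74 control mice per tissue, with both tissues scaled together. Bckdk and Bcat2 lie above the dashed line of equal levels, and the other genes lie below it.

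Bckdk, the inhibitory kinase, differed most. Its level was 4.07 to 19.05 scaled TPM in liver (median 7.73) and 46.3 to 139.9 in muscle (median 96.1). The groups did not overlap, and muscle was above liver in 74 of 74 mice. The fitted difference was 3.48 ± 0.06 log2 units (SE), or 11.2-fold (limma, adjusted p = 2.37e-105). Such separation was not particular to Bckdk: Pdha1, Ogdh and Cs, outside the pathway, were also higher in muscle without overlap. The share of all genes that separate the tissues so was not determined. Bcat2, the aminotransferase, ran from 0 to 9.74 scaled TPM in liver (median 4.64) and from 3.50 to 24.3 in muscle (median 13.5). It was 2.61-fold higher in muscle (1.39 ± 0.08 log2 units, limma, adjusted p = 2.29e-36) and higher in 73 of 74 mice. Ppm1k, the phosphatase that opposes Bckdk, went the other way, with 4.17 to 54.1 scaled TPM in liver (median 25.4) and 2.93 to 14.3 in muscle (median 6.31). Its level was 3.58-fold higher in liver. Muscle thus held more kinase and less phosphatase transcript than liver in the same mice.

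The subunits of the complex and the later enzymes were higher in liver by unequal amounts. Bckdhb was 3.43-fold higher in liver (median 70.4 against 19.4 scaled TPM) and Dbt 2.62-fold (33.04 against 11.8), and no mouse had either gene higher in muscle. Bckdha differed less, at 1.42-fold (105.2 against 74.5). Ivd was 2.02-fold, Acadsb 1.58-fold, Mccc1 1.53-fold and Hibch 1.18-fold higher in liver, the last with an adjusted p of 0.0062 by limma. Within liver the order by mean ± SD, in scaled TPM on this joint scale, was Acadsb (124.9 ± 21.2), Bckdha (105.7 ± 18.6), Ivd (79.5 ± 17.5), Bckdhb (71.8 ± 14.1), Hibch (37.7 ± 8.82), Dbt (32.9 ± 6.21), Ppm1k (26.8 ± 8.79), Mccc1 (13.8 ± 3.13), Bckdk (8.03 ± 2.69) and Bcat2 (4.94 ± 1.81). Neighbours in this order lay within the sum of their SDs, except Bckdhb with Hibch and Ppm1k with Mccc1. In muscle Bckdk led (98.3 ± 19.7), followed by Acadsb (78.8 ± 13.1), Bckdha (73.7 ± 14.1), Ivd (38.8 ± 8.33), Hibch (30.6 ± 6.01), Bckdhb (20.5 ± 5.42), Bcat2 (14.1 ± 3.80), Dbt (12.0 ± 2.94), Mccc1 (8.95 ± 3.41) and Ppm1k (6.64 ± 2.15). There the step from Bckdha to Ivd was wider than the sum of the SDs, and no other step was. The choice of scale matters for the smaller differences: with TPM as deposited, the median of all genes moved from 0.08 to 0.76 log2 units in favour of muscle. On that scale Bckdha, Acadsb, Mccc1 and Hibch were higher in muscle, by 0.46, 0.33, 0.25 and 0.65 log2 units, and only the first and last of these passed the threshold. Ivd was then 0.04 log2 units lower in muscle and no longer passed (adjusted p = 0.81 by limma). A pseudocount of 0.1 took the call from Hibch (adjusted p = 0.12).

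In muscle, 7 of the 10 genes were lower on the high-fat diet and none was higher. They were Bcat2 at the entry, Bckdhb and Dbt of the complex, the phosphatase Ppm1k, and Ivd, Acadsb and Mccc1 further down. The losses were similar in size, with high-fat to control ratios between 0.792 (Bcat2) and 0.842 (Mccc1). Over all 13515 genes tested in muscle, 1.61% passed the threshold, 1.03% as higher and 0.585% as lower. Because the 10 genes were chosen with earlier results known, the contrast with these shares is a description and no test. The median difference of the 10 genes was -0.28 log2 units, and -0.0050 for all genes. Each difference below is given with its SE as the high-fat mean less the control mean of log2(scaled TPM + 1), over 74 mice per diet, with limma's adjusted p over all genes tested.

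**Figure D2:**
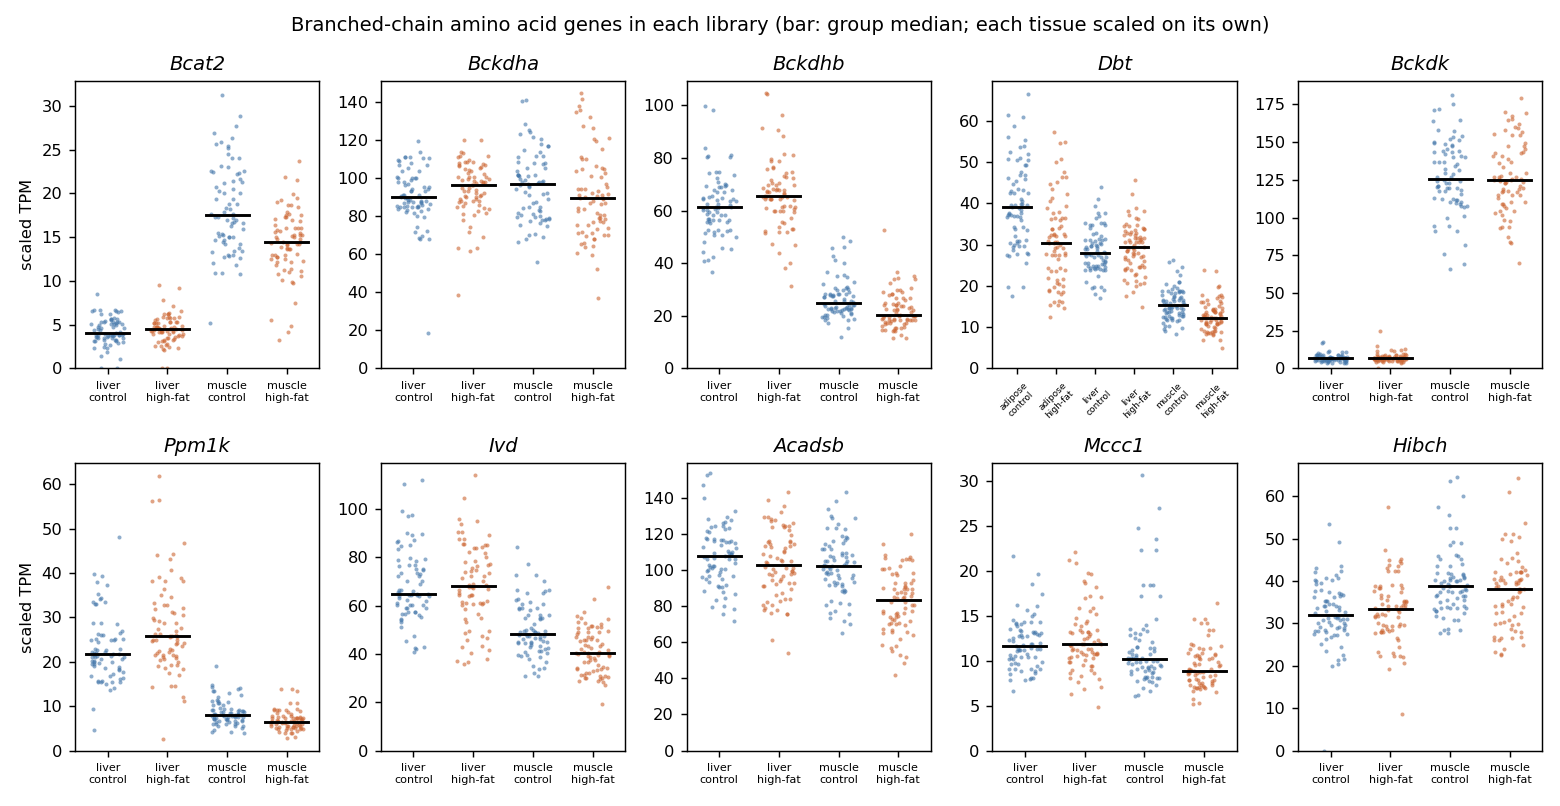
Scaled TPM (y axis, from 0) of each gene in every library, by tissue and diet; points are mice (73 to 75 per group) and bars are group medians. In muscle the high-fat points of Bcat2, Bckdhb, Dbt, Ppm1k, Ivd, Acadsb and Mccc1 are shifted down and overlap the control points. Each tissue was scaled on its own, so heights are to be compared between diets only.

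Bcat2 ran from 5.14 to 31.3 scaled TPM in control muscle (median 17.5) and from 3.26 to 23.7 in high-fat muscle (median 14.4). It fell by 0.34 ± 0.07 (adjusted p = 0.00089), and 14 of 74 high-fat mice lay above the control median. The mean was 18.3 ± 5.03 (SD) on the control diet and 14.3 ± 3.83 on the high-fat diet. The groups overlapped widely, with the highest control mice above every high-fat mouse.

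Of the dehydrogenase complex, the beta subunit and the core moved and the alpha subunit did not pass the test. Bckdhb ran from 12.0 to 49.9 scaled TPM on the control diet (median 24.8) and from 11.5 to 52.8 on the high-fat diet (median 20.2). It fell by 0.27 ± 0.06 (adjusted p = 0.0072), with 19 of 74 high-fat mice above the control median. Dbt ran from 8.39 to 26.3 (median 15.3) and from 4.85 to 23.9 (median 12.3), and fell by 0.29 ± 0.06 (adjusted p = 0.00047). For Dbt 15 of 74 high-fat mice lay above the control median. Bckdha had medians of 96.8 and 89.2, a difference of -0.09 with a 95% interval from -0.19 to 0.01 (adjusted p = 0.47).

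The regulators of the complex parted. The phosphatase gene Ppm1k ran from 3.96 to 19.1 scaled TPM in control muscle (median 8.06) and from 2.89 to 13.8 in high-fat muscle (median 6.47). It fell by 0.29 ± 0.06 (adjusted p = 0.0023), and 15 of 74 high-fat mice were above the control median. The kinase gene Bckdk had medians of 125.8 and 124.96 and a difference of -0.0021, with a 95% interval from -0.09 to 0.09 (adjusted p = 0.99). That interval does not reach the fitted value of Ppm1k, but the difference between both genes was not tested.

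Among the later enzymes Acadsb gave the clearest separation. It ran from 65.3 to 143.2 scaled TPM on the control diet (median 102.1) and from 42.004 to 119.8 on the high-fat diet (median 83.2). Only 9 of 74 high-fat mice lay above the control median, and the fall was 0.33 ± 0.05 (adjusted p = 5.17e-08). Its mean was 102.3 ± 16.4 (SD) in control and 82.2 ± 16.8 in high-fat mice. Ivd ran from 30.7 to 84.1 (median 48.5) and from 19.3 to 67.9 (median 40.6). It fell by 0.28 ± 0.05 (adjusted p = 0.00012), with 19 of 74 above. Both enzymes are flavin-dependent acyl-CoA dehydrogenases, acting on isoleucine and leucine respectively. Mccc1 ran from 6.06 to 30.7 (median 10.2) and from 5.19 to 16.4 (median 8.90), and fell by 0.25 ± 0.06 (adjusted p = 0.022). A few control mice lay far above the others for Mccc1, and 26 of 74 high-fat mice were above the control median. Hibch, on the valine route, had medians of 38.8 and 38.2, and its difference of -0.10 (95% interval -0.19 to -0.0018) did not pass after adjustment (adjusted p = 0.38).

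**Figure D3:**
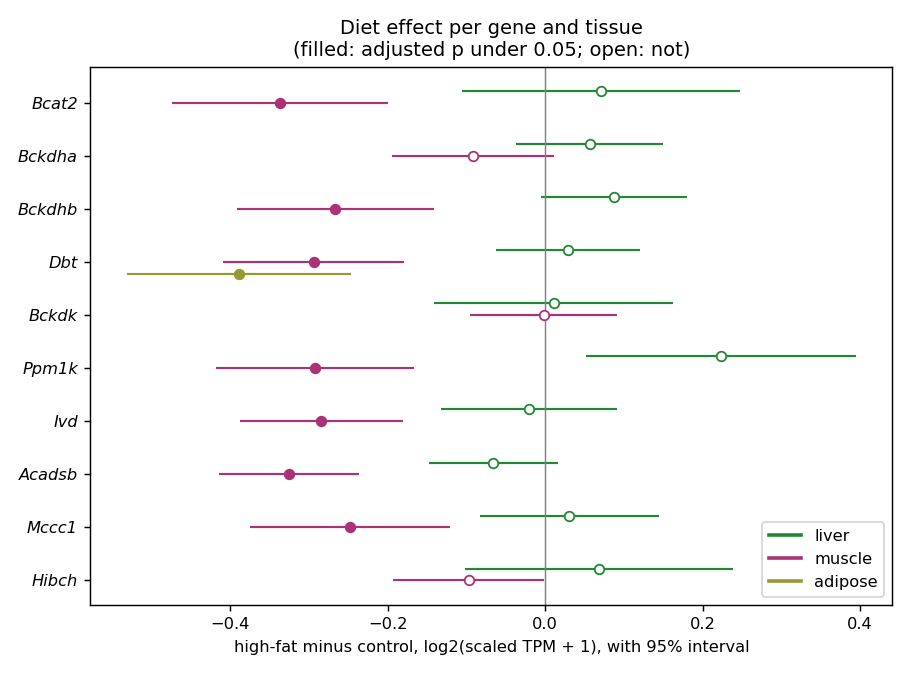
Effect of the high-fat diet on each gene, as a difference of mean log2(scaled TPM + 1) (x axis) with its 95% interval, for liver, muscle and adipose tissue; filled points have an adjusted p under 0.05. The filled muscle points lie between -0.34 and -0.25, the liver points are all open, and Dbt is the only gene with an adipose value.

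Of 20 further enzymes of these routes in muscle, 4 fell and 1 rose. Those that fell were Aldh6a1 (methylmalonate-semialdehyde dehydrogenase; -0.24 ± 0.05), Hibadh (3-hydroxyisobutyrate dehydrogenase; -0.17 ± 0.04), Mmab (-0.17 ± 0.04), which makes the cobalamin cofactor of methylmalonyl-CoA mutase, and Mmut, that mutase (-0.15 ± 0.04). Acaa2, a thiolase shared with fatty acid oxidation, rose by 0.27 ± 0.08. The list's median was -0.06. Of 15 tested transport and regulation genes, Slc43a1, a transporter of large neutral amino acids, was the only one to pass (-0.28 ± 0.06, adjusted p = 0.0061 by limma). In 12 genes of the related pyruvate and oxoglutarate dehydrogenase complexes, Pdk4, the kinase that inhibits pyruvate dehydrogenase, rose by 0.70 ± 0.13 and none fell.

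Markers of tissue make-up were measured beside these values. None of 17 nuclear-encoded electron transport genes passed in muscle by limma's adjusted p (median -0.02, 16 of 17 negative, 1 at an unadjusted p of 0.05). None of 8 muscle fibre genes passed either (median -0.13, 7 of 8 negative, 3 at an unadjusted p of 0.05). The fibre sum ranged from 41730 to 190020 scaled TPM in control and from 53501 to 181880 in high-fat muscle. Adipocyte genes summed to between 482 and 7684 scaled TPM in control and between 524 and 5136 in high-fat muscle, with 0 of 10 passing (4 unadjusted). Of 6 macrophage genes 0 passed (median 0.14, 6 of 6 positive, 2 unadjusted), and of 5 endothelial genes 0 (0 unadjusted). Of 4 erythrocyte genes Hbb-bs was lower (-0.34 ± 0.10). The part of these cells in the results was not tested. In bulk tissue fewer cells of a type and less RNA per cell cannot be told apart.

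The count of 7 rested on scaling the libraries. With TPM as deposited the falls were larger (-0.53 to -0.42 for the same 7 genes) against a median of -0.16 for all genes, and none of the 10 passed, with adjusted p between 0.054 and 0.17 for those 7 by limma. With the swapped-looking libraries of mouse 80 put back, 4 passed, and Bckdhb, Ppm1k and Mccc1 had adjusted p of 0.094, 0.070 and 0.058. Leaving out the 11 low-factor libraries, or the 9 that held hepatocyte transcripts, kept the count at 7.

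In liver none of the 10 genes passed the test, while 9.89% of 12376 genes did (4.55% higher, 5.34% lower). At an unadjusted p of 0.05, 1 gene passed, Ppm1k. It ran from 4.65 to 48.1 scaled TPM on the control diet (median 21.7) and from 2.53 to 61.8 on the high-fat diet (median 25.8). The difference was 0.22 ± 0.09 (adjusted p = 0.088 by limma), and 52 of 74 high-fat mice lay above the control median. The call depended on the libraries with low scale factors: leaving out 26 such libraries of liver gave 0.28 with an adjusted p of 0.0030. For the complex subunits the 95% intervals were -0.04 to 0.15 (Bckdha), -0.0049 to 0.18 (Bckdhb) and -0.06 to 0.12 (Dbt). For Ivd, Acadsb, Mccc1 and Hibch they were -0.13 to 0.09, -0.15 to 0.02, -0.08 to 0.14 and -0.10 to 0.24. Bckdk and Bcat2, both low in liver, had intervals of -0.14 to 0.16 and -0.11 to 0.25. A loss of 0.25, the smallest of those that passed in muscle, lay outside every one of these intervals.

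In liver 6 of the 19 further enzymes tested rose and none fell, with a list median of 0.06 against -0.0059 for all genes. Acat1, which splits acetoacetyl-CoA, rose by 0.32 ± 0.05 (156.0 ± 35.5 to 195.4 ± 42.6 scaled TPM, SD, n = 74 per diet; limma, adjusted p = 1.61e-06). Hadhb (0.21 ± 0.04), Hadha (0.17 ± 0.05) and Acaa2 (0.16 ± 0.05) also rose, and these act in fatty acid oxidation as well. Hsd17b10, of the isoleucine route, rose by 0.22 ± 0.07. By limma's test of the difference in diet effect between muscle and liver, 3 of the 19 passed: Hsd17b10 (-0.41 ± 0.10), Aldh6a1 (-0.32 ± 0.07) and Mmut (-0.21 ± 0.06). Acat1, Hadhb, Hadha and Acaa2 did not, with adjusted p of 0.23, 0.99, 0.89 and 0.65, and Acaa2 rose in both tissues. Among 12 transport and regulation genes, Mtor and Ppara rose (0.25 ± 0.06 and 0.23 ± 0.07). Mlxipl, the carbohydrate-responsive factor ChREBP, fell by 0.39 ± 0.05, Ppargc1a by 0.39 ± 0.10, and Slc25a44, the mitochondrial carrier of branched-chain amino acids, by 0.18 ± 0.05. Of 10 genes of the related dehydrogenase complexes, Pdk1, Dlat and Pdk4 fell and Dlst and Pdp2 rose. Hepatocyte markers moved too, with 4 of 8 lower and 1 higher (list median -0.14). Of 7 macrophage genes 1 was lower (7 of 7 negative), and of 4 adipocyte genes tested 1 was higher and 1 lower. Of 5 endothelial genes (5 of 5 negative) and 4 erythrocyte genes none passed. Of 17 electron transport genes 1 was lower. The part of these shifts in the results was not tested.

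In adipose tissue only Dbt could be examined. Its level ran from 17.6 to 66.6 scaled TPM in 73 control mice (median 39.02) and from 12.3 to 57.2 in 75 high-fat mice (median 30.4). It fell by 0.39 ± 0.07 log2 units (limma, adjusted p = 2.66e-06), and 15 of 75 high-fat mice lay above the control median. The mean was 39.9 ± 10.3 (SD) in control and 30.9 ± 10.5 in high-fat mice. The diet moved much of this tissue: 45.6% of 2226 genes tested passed, 22.9% as higher and 22.7% as lower. With TPM as deposited the difference was -0.15 (adjusted p = 0.48 by limma) while the median of all genes was 0.21.

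Several gene groups of adipose tissue moved with Dbt. All 4 adipocyte markers in the table fell: Retn (resistin) by 1.28 ± 0.16, Slc2a4 (the insulin-responsive glucose transporter) by 0.73 ± 0.10, Pparg by 0.48 ± 0.08 and Lpl by 0.40 ± 0.08. Their sum ran from 1974 to 12055 scaled TPM in control and from 1875 to 8589 in high-fat mice. Of 3 macrophage genes tested, Cd68 and Adgre1 rose by 1.56 ± 0.17 and 1.18 ± 0.15, and Cd163 did not pass (-0.13 ± 0.08, limma adjusted p = 0.17). The sum over the 4 macrophage genes in the table ran from 57.8 to 628 scaled TPM in control and from 78.6 to 1046 in high-fat mice. All 6 electron transport genes fell (median -0.20), as did 5 of 6 genes of the related complexes. The sixth, Pdk4, rose by 0.71 ± 0.15 (limma adjusted p = 4.81e-05). Dld, the dihydrolipoyl dehydrogenase shared by those complexes and the branched-chain one, fell by 0.17 ± 0.06. The part of these shifts in the Dbt value was not tested.

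The diet effect itself differed between muscle and liver. The difference was tested as an interaction of tissue and diet over 10966 genes, of which 3.14% passed, 1.92% with a higher and 1.21% with a lower effect in muscle. The same 7 genes that fell in muscle passed. The difference, muscle minus liver, was -0.50 ± 0.11 for Ppm1k (limma, adjusted p = 0.0012), -0.40 ± 0.12 for Bcat2 (0.030), -0.35 ± 0.08 for Bckdhb (0.0017) and -0.31 ± 0.07 for Dbt (0.0033). It was -0.27 ± 0.08 for Mccc1 (0.047), -0.26 ± 0.08 for Ivd (0.044) and -0.25 ± 0.06 for Acadsb (0.0074). Bckdha, Hibch and Bckdk did not pass, with 95% intervals of -0.30 to 0.01, -0.36 to 0.05 and -0.19 to 0.17. Comparing both tissues within each mouse gave 6 passing genes, because Mccc1 reached a limma adjusted p of 0.0504. Leaving out libraries with low scale factors also gave 6, because Acadsb reached 0.092 (-0.17). A pseudocount of 0.1, or testing all genes without a filter, left 4, and TPM as deposited left 0. For Dbt the effect in liver was 0.39 ± 0.08 above that in adipose tissue (limma, adjusted p = 7.83e-05, 23.8% of 1783 genes passing, 9.48% with a higher and 14.4% with a lower effect in liver). Muscle and adipose tissue did not differ for Dbt beyond error (0.06, 95% interval -0.12 to 0.25; 22.1% of 1929 genes passed, 9.64% with a higher and 12.5% with a lower effect in muscle).

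The spread between mice was examined as the distance of each mouse from its group's median, over genes whose mean scaled TPM reached 5. None of the 9 genes tested in liver and none of the 10 in muscle changed its spread by limma's adjusted p, beside 0.0266% of 7529 genes in liver and 0.0345% of 8705 in muscle. At an unadjusted p of 0.05 there was 0 in liver and 1 in muscle, Acadsb, with 0.07 ± 0.03 log2 units more distance on the high-fat diet. Bcat2 was below the limit in liver.

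Because each mouse gave both tissues, the levels could be followed within animals. With diet means subtracted, 10 correlations between liver and muscle were computed over 74 control and 74 high-fat mice, and the p-values are two-sided from 100000 permutations, adjusted over the 10. Bckdhb was the gene that passed by both measures (Pearson r = 0.34, p = 3e-05, adjusted p = 0.0003; Spearman rho = 0.32, p = 5e-05, adjusted p = 0.0005). Without the 2 mice farthest from the liver median r was 0.29. It was 0.33 in control mice and 0.35 in high-fat mice (74 each), and 0.33 when 33 mice with a low scale factor in either tissue were left out. Mice with more Bckdhb transcript in liver thus tended to have more in muscle on either diet. Hibch gave r = 0.19 (p = 0.020, adjusted p = 0.098) and rho = 0.29 (p = 0.00029, adjusted p = 0.0014). Its r was 0.27 without the 2 farthest mice and 0.29 without low scale factors, by a permutation test with adjusted p of 0.0042 and 0.010. For the other 8 genes r lay between -0.05 and 0.14. With TPM as deposited no gene passed, and r for Bckdhb was 0.11. The share of all genes that correlate so between the tissues was not determined, so whether these values are unusual is not known.

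**Figure D4:**
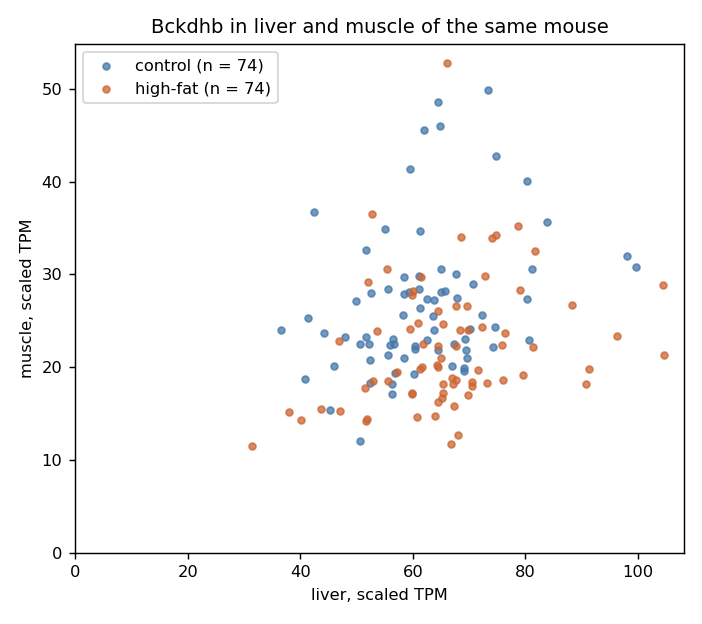
Bckdhb in muscle (y axis) against liver (x axis) of the same mouse, in scaled TPM, for 74 control and 74 high-fat mice. The cloud rises to the right in both diets, with r = 0.33 in control and 0.35 in high-fat mice.

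Levels of the genes within muscle were also compared from mouse to mouse. Over the same mice with diet means subtracted, 29 of 45 pairs had a positive and 1 a negative correlation that passed a permutation test adjusted over the 90 pairs of both tissues, with a median r of 0.22. Over all pairs of the 11770 tested protein-coding genes the median r was -6.2e-05. Of these pairs 18.7% reached the smallest positive r that passed among the 10 genes (0.19), against 64.4% of their own pairs. This contrast too is a description, because the 10 genes were chosen with earlier results known. The highest were Bckdhb with Dbt, 2 subunits of the same complex (r = 0.57, rho = 0.60, adjusted p = 6.9e-05 by permutation), Acadsb with Hibch (0.55, rho = 0.55) and Dbt with Acadsb (0.50, rho = 0.48). The lowest was Bckdk with Mccc1 (-0.37, rho = -0.32, adjusted p = 0.00011 by permutation). Bckdha with Mccc1 (-0.12, rho = -0.14) and Bcat2 with Bckdk (-0.07, rho = 0.01) came next and did not pass. In another setting the 2 mice farthest from the median for each pair's first-named gene were left out. The 3 highest values were then 0.54, 0.52 and 0.48 and the lowest -0.33. Mice far out for the second gene alone stayed in. Bckdk with Mccc1 had r = -0.45 in control mice alone (adjusted p = 0.00070 by permutation) and -0.27 in high-fat mice alone (0.060). No negative pair passed in high-fat mice, where Bckdha with Mccc1 was as low (-0.27). Bckdk had no positive partner among the 3 highest pairs, and its own r to Bckdha was 0.41 (rho = 0.38).

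**Figure D5:**
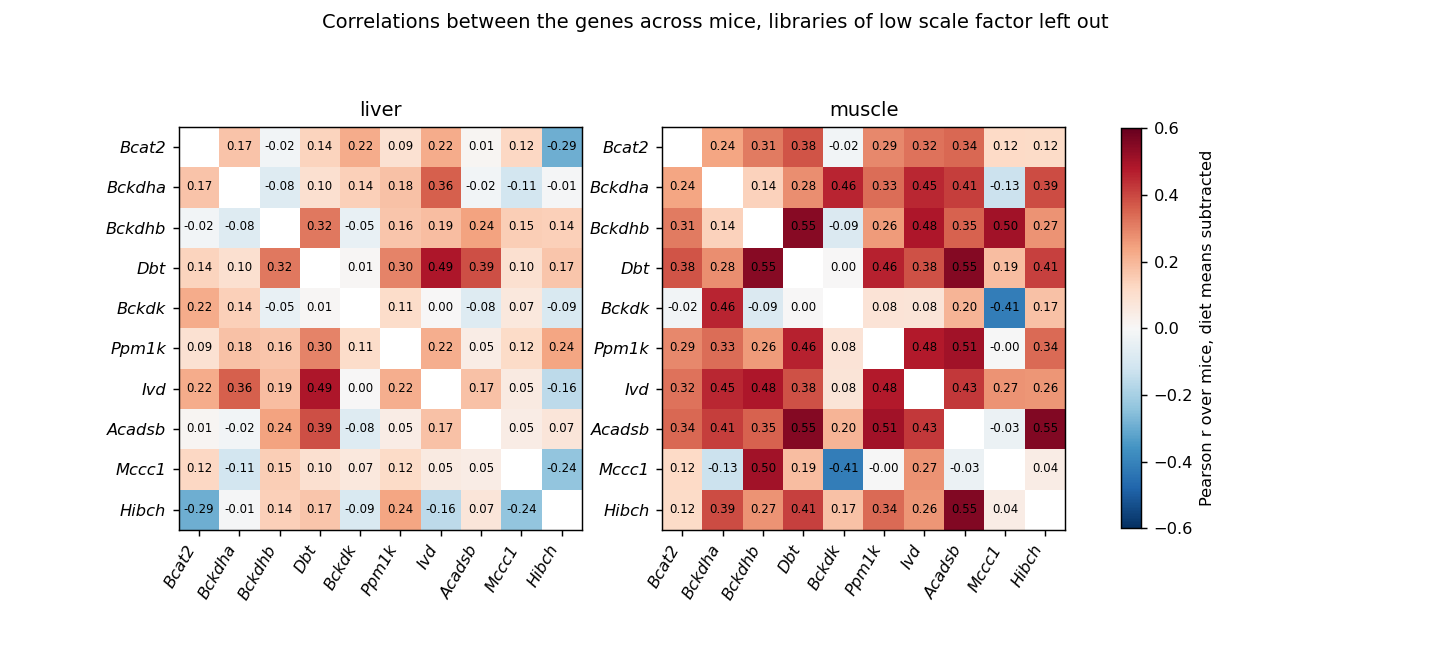
Pearson r between each pair of the 10 genes over mice, diet means subtracted, leaving out the 26 liver and 11 muscle libraries with a low scale factor; red is positive and blue negative. Of 45 pairs, 30 in muscle and 10 in liver were positive and passed the permutation test, and the lowest value in muscle is Bckdk with Mccc1.

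In liver 11 of 45 pairs had a positive and 2 a negative correlation that passed. The median r was 0.06 against 0.05 over all gene pairs. In liver 24.4% of the pairs of the 10 genes and 19.3% of all pairs reached the smallest positive r that passed (0.21), and without low scale factors 22.2% and 4.59% reached that setting's smallest (0.22). The extremes of the 45 pairs depended on which libraries were kept. Bckdha with Hibch had r = 0.61 (rho = 0.09), which became 0.02 without the 2 farthest mice and -0.0051 without low scale factors. Bckdha with Ppm1k (0.49, rho = 0.22) became 0.21 without the 2 farthest mice, and Bcat2 with Bckdha (0.45, rho = 0.16) 0.35. Without low scale factors these were 0.18 and 0.17. Of the lowest pairs, in that same setting, Bcat2 with Bckdk (-0.21) became 0.22, Bckdk with Hibch (-0.21) became -0.09 and Bckdk with Ppm1k (-0.19) became 0.11. Without the 2 farthest mice the lowest r of any liver pair was still -0.21. After the libraries with low scale factors were left out, 10 positive and 2 negative pairs passed in liver, and 30 and 1 in muscle. With TPM as deposited all 90 pairs were positive, between 0.70 and 0.98, since all genes of a library then share its scale. The difference between the tissues in these correlations was not tested.

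Bckdhb and Bckdk were also set against all other tested protein-coding genes, as a description over the same 74 mice per diet, whose values share library and scale. In muscle the genes with the highest r to Bckdhb were Lpl (0.58), Snrk (0.56), Fam213a (0.56), Chpt1 (0.56) and Ppp2r5a (0.54), among 11760 genes. Those most like Bckdk in muscle were Aes (0.82), Ube2m (0.80), Ldb3 (0.77), Mdh2 (0.76) and Gsk3a (0.76). In liver the values were lower. Bckdhb was most like Aldh6a1 (0.40), an enzyme of valine breakdown, then Tomm70a (0.40), Pms2 (0.39), Nt5e (0.39) and 2310022B05Rik (0.38), among 10803 genes. Without low scale factors its leading liver genes were Dld (0.43), the shared dihydrolipoyl dehydrogenase subunit of the complex, Aldh6a1 (0.39) and Hibadh (0.39). Bckdk in liver was most like Blvra (0.54), Mrpl4 (0.53), Orai3 (0.51), Poc5 (0.51) and Stx4a (0.50), and none of these was among its 5 leading genes without low scale factors.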

How the data were processed

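Total RNA of 3 tissues was made into strand-specific libraries and run on a MiSeq (per the labels' protocols). Tools listed in the submitters' processing notes are FastQC, Trim Galore 0.4.4 and Bowtie 1.2.2; how reads were quantified, and the build used, is not given in the sources used here. TPM were deposited: each liver and muscle column sums to 1000000 over 47643 genes. The adipose table is on the same scale, with 2728 complete genes and 1 incomplete line that was left out. Groups come from the labels. IDs were matched to GENCODE release M21 (99.1% in liver and muscle, 99.9% in adipose tissue).

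Libraries were scaled by the trimmed mean log ratio to a reference of per-gene medians (0.3 of ratios and 0.05 of levels trimmed; reference of at least 1 TPM, a floor set after the files were seen). A gene was tested where scaled TPM was at least 1 in enough libraries of either diet. Enough meant a number equal to 0.7 of the size of the smaller diet group (tissue comparison: in at least 1 tissue, likewise). Values were log2(scaled TPM + 1), fitted with limma 3.58.1 in R 4.3.3 (trend, robust, Benjamini-Hochberg, threshold 0.05); scripts ran in Python 3.11.15. A fold change on this scale understates low genes. The scripts were tested on simulated data.

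Equal numbers are the same mouse by the labels. As a check, liver correlated best with muscle of the same number in all but 13 mice, 3 control and 10 high-fat. The genes for this check were chosen on the mice not being checked. An earlier choice of genes, by variance, matched fewer and was replaced. The correlations and the tests of diet effect between tissues were not repeated without these 13 mice. Alternatives are a replicate block, other scaling, pseudocounts, filters and left-out libraries. All 10 genes are named whatever their result; of other lists at most 5 with the smallest p per tissue. The members and lists were chosen with earlier results of these data known.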

Additional observations from a re-analysis of the deposited data

Results flagged for a closer look

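For 7 genes the effect of the high-fat diet differed between muscle and liver by the interaction test (limma, adjusted p under 0.05 each). The difference, muscle minus liver, was -0.31 log2 units for Dbt, -0.40 for Bcat2, -0.35 for Bckdhb, -0.50 for Ppm1k, -0.26 for Ivd, -0.25 for Acadsb and -0.27 for Mccc1. For Dbt the effect also differed between liver and adipose tissue, by 0.39. These differences share the muscle, liver and adipose values given above.

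The library labelled liver of mouse 80 held 91926 scaled TPM over 8 muscle fibre genes, where other liver libraries held at most 3297 on the control and 6272 on the high-fat diet. The library labelled muscle of the same mouse held 70357 over 8 hepatocyte genes, against at most 1695 and 5723 in other muscle libraries. Neither library entered the comparisons.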

How the results depend on the processing

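Ranges below cover the alternatives run for each result. With TPM as deposited the share of tested genes passing was 0.479% in liver (9.89% as reported), 0.111% in muscle (1.61%), 14.4% in adipose tissue (45.6%), 0.0638% and 6.34% for the diet effect of liver against muscle and adipose tissue (3.14% and 23.8%), 0.0140% for spread in liver and 0% in muscle. Of the genes passing, 18.6% were then higher in liver (45.997% as reported), 33.3% in muscle (63.8%) and 94.6% in adipose tissue (50.2%). Of the 10 genes, 0 passed in muscle, in adipose tissue, between liver and muscle and between liver and adipose tissue, 4 were higher and 3 lower in muscle than liver, and 0 same-mouse correlations and 90 pair correlations passed. Muscle minus liver was then 0.46 for Bckdha, 0.33 for Acadsb, 0.25 for Mccc1 and 0.65 for Hibch. Pairs of Bckdk that turned positive were Bcat2 (0.89), Ppm1k (0.90) and Hibch (0.90) in liver and Bcat2 (0.83) and Mccc1 (0.70) in muscle, as did Bckdha with Mccc1 (0.76).

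Without low scale factors 15.7% of genes passed in liver and 5.91% between the tissues, 1 of the 10 genes was higher in liver (Ppm1k), 2 same-mouse correlations passed, and in liver Bcat2 with Bckdk was 0.22 and Bckdha with Hibch -0.0051. Without the 13 mice whose tissues did not match (8 of them with a low scale factor), Ppm1k was again higher in liver (1 gene; 0.31, adjusted p = 0.0012 by limma) and 6 genes were lower in muscle, Mccc1 having an adjusted p of 0.055. No filter gave 0.301% of genes in muscle, 59.6% between the tissues on the control diet, 6 of the 10 lower in muscle and 4 between tissues; a pseudocount of 0.1 also gave 4, and 0.0133% of genes for spread in liver. With mouse 80, 1.05% of genes and 4 of the 10 passed in muscle. Leaving out libraries with markers of the other tissue, an alternative chosen after seeing the data, gave 1.05% of genes and 7 of the 10. Control or high-fat mice alone gave 27 pairs each, against 43, and without the 2 farthest mice 2 same-mouse correlations passed.

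With the replicate block (tissues paired within mice) the differences between liver and muscle were -0.31 (Dbt), -0.40 (Bcat2), -0.35 (Bckdhb), -0.50 (Ppm1k), -0.26 (Ivd) and -0.25 (Acadsb) with 6 genes passing; Mccc1 (-0.27) had an adjusted p of 0.050, and no other of the 10 changed its call. Depth is unknown from TPM, so low genes such as Bcat2 and Bckdk in liver carry an unknown counting error.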
